A study of Homo sapiens with 12 samples.

Results

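The G2 and mitosis genes described here are 36 named genes whose products carry a cell from late G2 through chromosome segregation and division. They were taken by symbol from the 60617 gene IDs of the count tables, and each symbol matched 1 ID. The samples are RNA sequencing libraries in 4 groups of 3, all from the human line 769-P, which came from a clear cell renal carcinoma. One experiment holds the libraries labelled sihnRNPA2B1 (small interfering RNA against HNRNPA2B1, an RNA-binding protein) and their controls, sihnRNPA2B1-NC. The other holds the libraries labelled siDRAIC (against the long non-coding RNA DRAIC) and their controls, siDRAIC-NC. All cells were grown in RPMI1640 with fetal bovine serum. No time after transfection, dose, siRNA sequence or meaning of the letters NC is given in the sources used here, and no label says that replicates are separate cultures, so p-values cover the spread among these libraries and nothing wider.

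By role, 8 genes act at mitotic entry (CCNA2, CCNB1, CCNB2, CDK1, CDC25C, CDCA3, PLK1, AURKA). Another 5 belong to the spindle checkpoint and the anaphase-promoting complex (APC/C) pathway (BUB1, BUB1B, TTK, CDC20, UBE2C), and 3 to the chromosomal passenger complex (AURKB, BIRC5, CDCA8). Centromere and kinetochore proteins make up 6 (CENPA, HJURP, CENPE, CENPF, NDC80, NUF2), spindle motors and microtubule proteins 8 (KIF11, KIF2C, KIF20B, TPX2, NUSAP1, HMMR, DLGAP5, GTSE1), cytokinesis 3 (ANLN, ECT2, KIF23) and chromosome structure 3 (TOP2A, MKI67, CDCA2).

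As background, the kinase CDK1 with a cyclin B partner drives cells into mitosis once CDC25 phosphatases remove inhibitory phosphates placed by WEE1 and PKMYT1. The spindle checkpoint kinases hold anaphase until every kinetochore is attached, after which CDC20 and UBE2C let the APC/C mark cyclin B and securin for destruction. Transcripts of these genes accumulate in G2 through the MuvB core with B-MYB (MYBL2) and FOXM1, and the same MuvB core in the DREAM complex holds them low in quiescent cells or when p53 and CDKN1A (p21) are active. MuvB binds a promoter element called the CHR (cell cycle genes homology region), often near CCAAT boxes bound by NF-Y.

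Promoter sequences show this shared element. RefSeq promoters (GRCh38.p14, 250 bases before to 50 after a start) were found for 30 of the 36 genes, 36 promoters in all, and 5 of these 300-base windows are printed. CDCA8, CDC20 and PLK1 carry the element and were lower after sihnRNPA2B1. CCNB2 carries it and was not lower, and KIF2C lacks it and was lower after sihnRNPA2B1. Over the 30 genes, a CHR was found for 11 of the 13 called lower after sihnRNPA2B1 (not AURKB and KIF2C) and for 14 of the 17 not called (not CCNA2, CCNB1 and CENPE). Capitals mark the CHR searched, TTTGAA or TTCGAA, and the CCAAT box, CCAAT, on either strand.

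CDCA8, chr1:37692266-37692565, plus strand: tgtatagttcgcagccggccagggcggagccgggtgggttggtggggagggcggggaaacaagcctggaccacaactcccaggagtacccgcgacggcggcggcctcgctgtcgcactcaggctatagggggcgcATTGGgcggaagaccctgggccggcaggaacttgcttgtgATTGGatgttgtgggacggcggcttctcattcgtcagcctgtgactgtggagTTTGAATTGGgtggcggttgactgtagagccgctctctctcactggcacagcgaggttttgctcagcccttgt

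CDC20, chr1:43358731-43359030, plus strand: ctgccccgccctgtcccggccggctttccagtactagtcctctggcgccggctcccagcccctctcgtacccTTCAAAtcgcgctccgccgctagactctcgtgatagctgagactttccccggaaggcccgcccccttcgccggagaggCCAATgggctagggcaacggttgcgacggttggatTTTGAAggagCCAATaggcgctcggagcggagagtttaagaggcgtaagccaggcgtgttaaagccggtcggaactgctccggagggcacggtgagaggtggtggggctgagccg

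PLK1, chr16:23678639-23678938, plus strand: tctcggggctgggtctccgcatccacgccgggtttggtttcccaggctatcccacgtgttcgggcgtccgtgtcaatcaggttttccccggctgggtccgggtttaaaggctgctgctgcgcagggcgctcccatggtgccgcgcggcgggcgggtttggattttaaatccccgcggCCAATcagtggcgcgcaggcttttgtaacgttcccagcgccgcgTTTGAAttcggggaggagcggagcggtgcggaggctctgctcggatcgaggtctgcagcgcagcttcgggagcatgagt

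CCNB2, chr15:59104896-59105195, plus strand: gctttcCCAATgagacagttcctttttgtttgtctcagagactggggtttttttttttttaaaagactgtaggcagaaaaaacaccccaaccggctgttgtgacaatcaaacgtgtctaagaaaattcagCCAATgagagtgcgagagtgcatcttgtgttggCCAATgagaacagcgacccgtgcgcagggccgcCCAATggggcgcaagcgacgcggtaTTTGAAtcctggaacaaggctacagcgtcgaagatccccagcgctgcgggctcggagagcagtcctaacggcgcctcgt

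KIF2C, chr1:44739587-44739886, plus strand: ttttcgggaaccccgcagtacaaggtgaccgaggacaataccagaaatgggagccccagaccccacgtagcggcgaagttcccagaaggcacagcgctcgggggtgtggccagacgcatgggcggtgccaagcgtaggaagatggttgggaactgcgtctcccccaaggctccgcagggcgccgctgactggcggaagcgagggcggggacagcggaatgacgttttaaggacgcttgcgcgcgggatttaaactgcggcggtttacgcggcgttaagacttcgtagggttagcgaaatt

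A CHR was present in 28 of the 36 promoters (77.8%), against 16.4% of all 35116 RefSeq promoters of the same length. CCAAT was present in 27 (75.0%) against 34.6%, and both in 23 (63.9%) against 6.38%. In the CDCA8 window the CHR begins at -23, counted from the start, and runs into a CCAAT box on the other strand with which it shares a base. The CHR begins at -29 in both PLK1 and CCNB2 and at -65 in CDC20, whose second match lies at -178. Sequence matches are descriptions of these letters and not of binding. AURKA, BIRC5, CDCA2, TPX2, TTK and UBE2C had no entry in the promoter table.

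Per kilobase of annotated exon, the highest transcript level over the 4 groups was that of CDC20, the APC/C activator, at 123.2 CPM (counts scaled to the library total) per kb. UBE2C, the ubiquitin-conjugating enzyme that works with the APC/C, followed at 64.6 CPM per kb and CCNB1 at 60.2 CPM per kb. The lowest detected well was the kinetochore motor CENPE at 2.01 CPM per kb, and NUSAP1, a microtubule-bundling protein, was near the floor at 0.128 CPM per kb. NUSAP1 lies within the same-strand AC087721.2, whose reads cannot be told apart from its own. It had 0.130 to 0.751 CPM in the 12 libraries and fell below the expression filter of the sihnRNPA2B1 experiment.

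Library totals ran from 30798303 to 42760528 counts. HNRNPA2B1 had 291.0, 307.1 and 273.7 CPM in the sihnRNPA2B1 libraries and 427.9, 395.7 and 435.1 CPM in their controls, a called fall to 0.677 of the control level (edgeR log2 fold change -0.56 ± 0.0524 SE, adjusted p = 2.16e-09). DRAIC had 3, 6 and 0 counts in the libraries labelled siDRAIC and 2, 1 and 2 counts in siDRAIC-NC, a ratio of 1.76 (95% interval from counting error alone, 0.531 to 6.70), so a knockdown was not detectable at this depth. The kidney factor PAX8 averaged 436.7 and 485.1 CPM in siDRAIC and siDRAIC-NC and 448.7 and 500.3 CPM in sihnRNPA2B1 and sihnRNPA2B1-NC. At least 1 CPM on average was reached by 7 of the 9 listed kidney and clear cell carcinoma markers in siDRAIC and by 6 in each other group. From that list, CA9 had 0 counts in every group except siDRAIC-NC (1, 0 and 1 counts). NDUFA4L2 had 0 to 10 counts per library and AQP1 0.0974 to 1.63 CPM. Among other cell types, 0 of 4 blood and 0 of 4 endothelial markers averaged 1 CPM in any group. In the siDRAIC experiment, same-group libraries stood far apart. Chi-square over its degrees of freedom was 139.8 and 122.3 between siDRAIC-NC replicate 1 and replicates 2 and 3, and 30.3 between those other libraries. It was 56.5, 61.2 and 92.3 between the siDRAIC libraries, and 4.94 to 16.9 within groups of the sihnRNPA2B1 experiment.

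After sihnRNPA2B1, 17 of the 35 tested genes fell and 0 rose at an edgeR adjusted p below 0.05. Over all 15710 genes of that experiment, 15.4% were called lower and 15.1% higher. The median log2 fold change of the 35 genes was -0.18, beside 0.01 over all genes. Of the 35 estimates, 31 were below 0, in a range of -0.62 to 0.11, beside 48.9% of all genes below 0. Summed over the 36 genes, transcript levels were 2628, 2581 and 2436 CPM in sihnRNPA2B1 libraries, against 2867, 2826 and 2967 CPM in controls, and the 2 groups did not overlap. Fewer cells in G2 and mitosis and less RNA of these genes per cell cannot be told apart in bulk RNA. Mitochondrially encoded mRNAs took 6.36% ± 0.124 of counts in sihnRNPA2B1 libraries and 5.17% ± 0.0615 in controls (SD, n = 3 each), and hepatocyte markers (3 listed, of which SERPINA1 averaged above 1 CPM) summed to 29.1 to 31.8 CPM against 52.5 to 56.7 CPM. The 4 fibroblast markers summed to 3.56 to 4.12 CPM in sihnRNPA2B1 libraries, with LUM at 0, and to 2.47 to 3.39 CPM in controls, with DCN at 0. COL1A1 averaged 3.16 CPM against 2.20 CPM in controls, and PDGFRB 0.660 CPM against 0.702 CPM. The part of these measures in the result was not tested.

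All 3 listed members of the chromosomal passenger complex fell, and they had the lowest estimates of the set. The complex corrects wrong attachments between kinetochores and microtubules. These genes lie on GRCh38 at chr17:8204733-8210600 (AURKB, ENSG00000178999), chr17:78214186-78225636 (BIRC5, ENSG00000089685) and chr1:37692418-37709719 (CDCA8, ENSG00000134690). AURKB, its kinase, had 70.8, 70.2 and 69.3 CPM in sihnRNPA2B1 libraries and 102.6, 112.4 and 99.7 CPM in controls. Its log2 fold change was -0.62 ± 0.0614 SE (adjusted p = 7.65e-09). BIRC5 (survivin), which places the complex on chromatin, had 89.5, 97.3 and 104.4 CPM in sihnRNPA2B1 libraries and 144.6, 148.9 and 135.8 CPM in controls (-0.59 ± 0.0621, adjusted p = 1.85e-08). CDCA8 (borealin) had 57.0, 60.1 and 60.1 CPM against 84.1, 91.9 and 85.8 CPM in controls (-0.60 ± 0.0623, adjusted p = 1.76e-08). Every sihnRNPA2B1 library lay below every control library for each of these genes. INCENP, the scaffold of the same complex and no member of the set, was lower as well (-0.27 ± 0.0677, adjusted p = 0.00308).

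**Figure D1:**
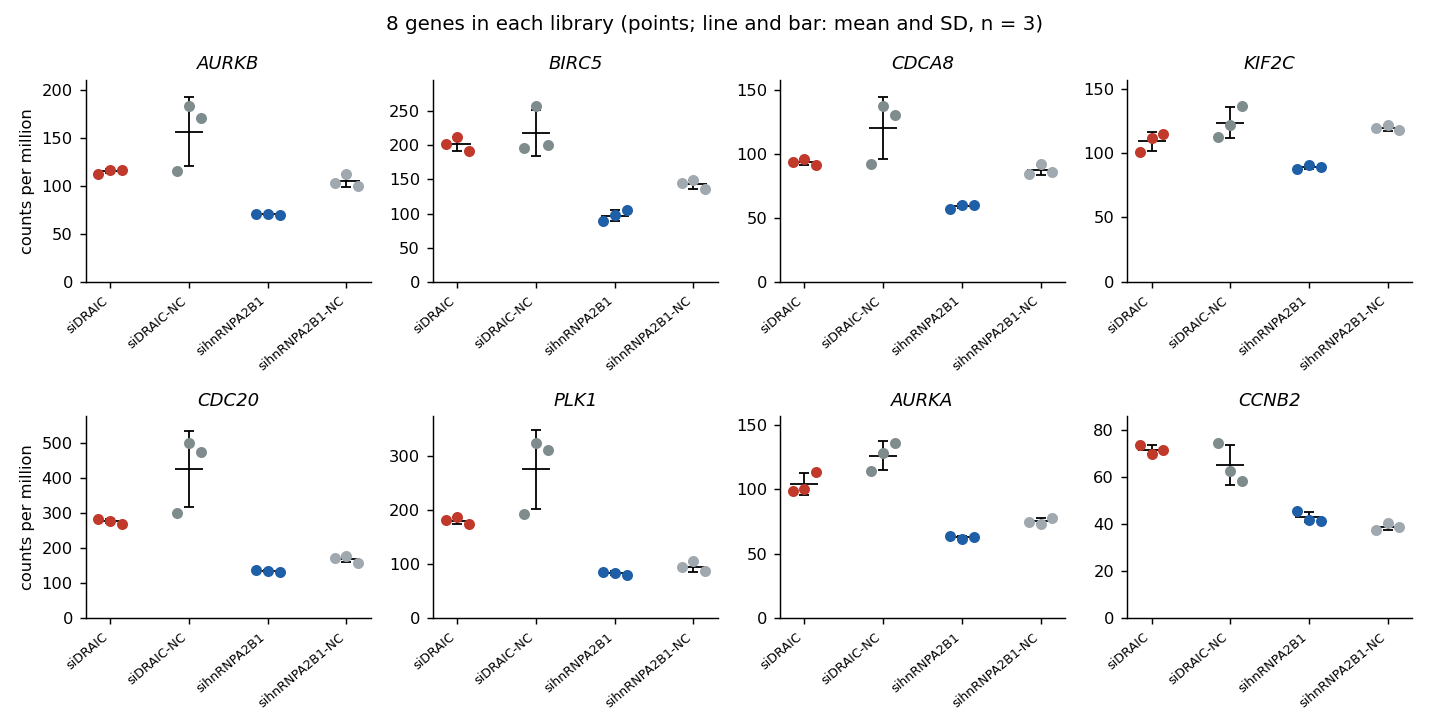
CPM (y axis, from 0) of 8 genes in each of the 12 libraries (points), with the mean and SD of 3 libraries, for siDRAIC, siDRAIC-NC, sihnRNPA2B1 and sihnRNPA2B1-NC from left to right. AURKB is at 69.3 to 70.8 CPM in sihnRNPA2B1 and 99.7 to 112.4 CPM in its controls, while siDRAIC-NC is spread from 114.9 to 182.8 CPM.

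Of the 5 checkpoint and APC/C genes, 3 fell. CDC20 had 137.7, 135.4 and 132.4 CPM in sihnRNPA2B1 libraries and 170.5, 176.9 and 158.1 CPM in controls (-0.35 ± 0.0565, adjusted p = 1.97e-05). UBE2C had 53.8, 54.9 and 53.0 CPM against 67.9, 68.0 and 62.4 CPM in controls (-0.33 ± 0.0638, adjusted p = 0.000222). BUB1, a checkpoint kinase at the kinetochore, fell by 0.22 on the log2 scale (SE 0.0603, adjusted p = 0.00675), with 62.4 to 66.2 CPM in sihnRNPA2B1 libraries and 70.2 to 75.6 CPM in controls. For all 3 the groups did not overlap. The checkpoint proteins BUB1B and TTK had estimates of 0.09 ± 0.0725 and 0.06 ± 0.0762 and were not called.

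Of the 8 mitotic entry genes, 4 fell. AURKA, the centrosome kinase, had 63.4, 61.2 and 63.2 CPM in sihnRNPA2B1 libraries and 74.9, 73.2 and 78.0 CPM in controls (-0.30 ± 0.0597, adjusted p = 0.000277). PLK1, a kinase of centrosome maturation and cyclin B activation, had 86.3, 84.2 and 80.5 CPM against 94.2, 105.3 and 87.3 CPM in controls (-0.23 ± 0.0660, adjusted p = 0.00928). Both pairs of groups were separate, for PLK1 by under 1 CPM. CDK1 (-0.22 ± 0.0651, adjusted p = 0.0112) and CDCA3, which targets WEE1 for destruction (-0.24 ± 0.0928, adjusted p = 0.0453), were called although their groups overlapped. CDK1 had 64.9 to 69.5 CPM in sihnRNPA2B1 libraries against 69.4 to 84.5 CPM in controls, and CDCA3 18.0 to 21.4 CPM against 20.5 to 24.9 CPM.

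The cyclins, partners of CDK1, were not called. CCNB1 had 84.0, 85.9 and 84.0 CPM in sihnRNPA2B1 libraries and 89.1, 89.7 and 88.7 CPM in controls, separate groups with a log2 fold change of -0.11 ± 0.0567 that was not called. CCNB2 had 45.5, 41.7 and 41.4 CPM in sihnRNPA2B1 libraries and 37.4, 40.3 and 38.5 CPM in controls (0.11 ± 0.0698, adjusted p = 0.237), the only gene of the set with every sihnRNPA2B1 library above every control. CCNA2 (-0.01 ± 0.0639) and the phosphatase CDC25C (-0.17 ± 0.121) were not called either. Without overlap, 14 genes were lower and 1 higher, and 18.3% of all tested genes were lower in this way.

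Among spindle proteins, 5 of the 7 tested fell. KIF2C, a kinesin that takes tubulin off microtubule ends at the centromere, had 87.4, 90.8 and 89.2 CPM in sihnRNPA2B1 libraries and 119.3, 122.1 and 117.8 CPM in controls (-0.46 ± 0.0558, adjusted p = 2.54e-07). TPX2, the activator of AURKA on the spindle, had 162.2, 158.0 and 164.7 CPM against 195.7, 191.6 and 194.5 CPM in controls (-0.30 ± 0.0517, adjusted p = 6.00e-05). GTSE1, a microtubule plus-end protein, had 35.4, 34.1 and 34.1 CPM against 44.3, 45.0 and 39.6 CPM in controls (-0.35 ± 0.0722, adjusted p = 0.000430). In each the groups were separate. KIF20B (-0.24 ± 0.0811, adjusted p = 0.0242) and HMMR (-0.22 ± 0.0703, adjusted p = 0.0177) were called with overlapping groups, at 26.1 to 32.4 CPM against 31.9 to 36.9 CPM and at 45.1 to 46.9 CPM against 46.2 to 57.4 CPM in controls. The bipolar spindle motor KIF11 (-0.16 ± 0.0732) and DLGAP5 (0.03 ± 0.0957) were not called.

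Of the cytokinesis genes 1 of 3 fell, and of the centromere genes 1 of 6, the latter near the 15.4% of all genes called lower. ANLN, the anillin scaffold of the contractile ring, had 155.6, 161.6 and 152.0 CPM in sihnRNPA2B1 libraries and 172.3, 169.6 and 201.7 CPM in controls (-0.24 ± 0.0584, adjusted p = 0.00187). HJURP, the chaperone that loads the centromeric histone CENPA, had 52.7, 50.8 and 46.6 CPM against 54.9, 53.7 and 58.9 CPM in controls (-0.19 ± 0.0658, adjusted p = 0.0262). Neither pair of groups overlapped, and those of HJURP were about 1 CPM apart. Estimates of the uncalled genes of these roles lay between -0.18 for CENPA and -0.05 for CENPF, with KIF23 (-0.12), NUF2 (-0.13), NDC80 (-0.11), CENPE (-0.10) and ECT2 (-0.08) between them. Of the chromosome structure genes 0 were called: the topoisomerase TOP2A (-0.06), the proliferation marker MKI67 (-0.06) and CDCA2 (-0.11).

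**Figure D2:**
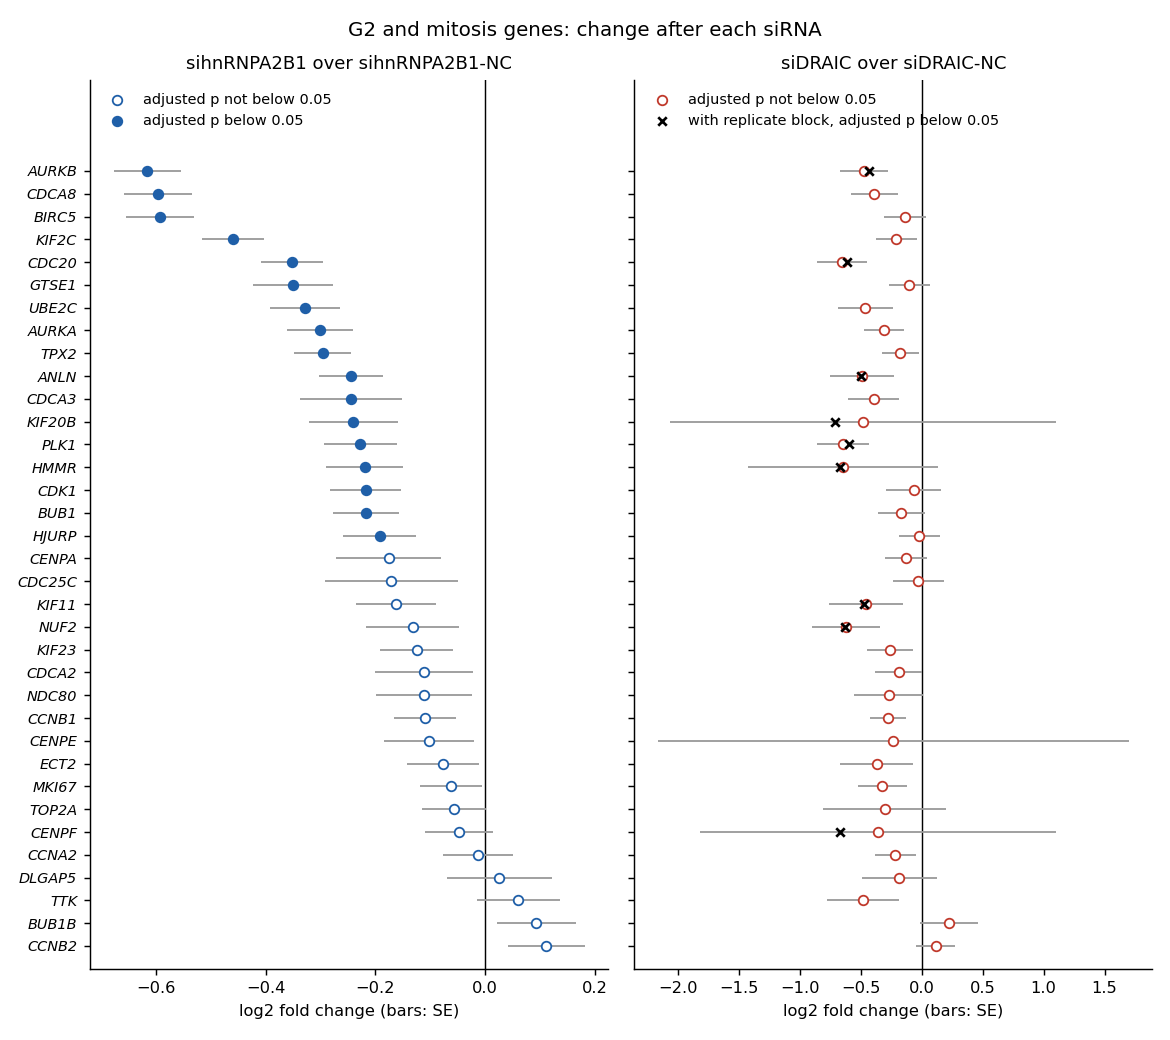
Log2 fold change with its SE (x axis, scaled separately in each panel) for 35 genes after sihnRNPA2B1 (left) and in the libraries labelled siDRAIC (right), each over its own controls, ordered from the lowest estimate on the left panel. Filled points on the left are the 17 called genes; on the right 0 are called and black crosses mark the 9 called once same-numbered libraries are compared.

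Several calls depended on which libraries were used. BIRC5 alone was called when the spread was estimated over all 12 libraries of both experiments (283 genes in all). The calls of CDCA3, HJURP, HMMR, KIF20B, CDK1 and PLK1 were lost without one library or another: CDCA3 without sihnRNPA2B1 replicate 2 or 3 or control replicate 1 or 2, HJURP and HMMR without sihnRNPA2B1 replicate 2 or 3 or control replicate 1 or 3, KIF20B without sihnRNPA2B1 replicate 3 or control replicate 1 or 3, CDK1 without sihnRNPA2B1 replicate 3 (adjusted p = 0.0526), and PLK1 without control replicate 2 (adjusted p = 0.0777). Genes of higher transcript GC content had lower log2 fold changes (Spearman rho -0.54 across the 35 genes, which share the same 6 libraries), and over 12452 protein-coding genes rho was -0.25.

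Other genes of the pathway were read from lists. Of 40 further mitosis genes 15 fell and 0 rose (median -0.13), led by the CDK1 partners CKS1B (-0.52 ± 0.0594, adjusted p = 9.91e-08) and CKS2 (-0.51) and by separase, ESPL1 (-0.50). FOXM1 fell (-0.40 ± 0.0624), with 83.5, 78.7 and 74.0 CPM in sihnRNPA2B1 libraries against 102.5, 107.1 and 95.5 CPM in controls, and so did the DREAM subunit E2F4 (-0.39). The MuvB subunit RBBP4 rose (0.26). In that list of 15 regulators 4 fell and 3 rose, with a median of 0.00, and MYBL2 was not called (-0.15 ± 0.0646, adjusted p = 0.0815). Of 17 APC/C genes 3 fell and 1 rose, and the E2 enzyme UBE2S, which extends ubiquitin chains for the APC/C, had the smallest p (-0.46). Over all genes 15.4% were called lower and 15.1% higher, so the fallen APC/C genes were near the share of all genes.

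Of 12 genes that hold CDK1 back or act in the G2 checkpoint, 5 fell and 2 rose (median -0.16), with GADD45A (-0.53), the CDK1-inhibiting kinase PKMYT1 (-0.51) and SFN (-0.36) lower. CDKN1A was called lower (-0.13 ± 0.0492, adjusted p = 0.0428) at 1370, 1370 and 1479 CPM in sihnRNPA2B1 libraries and 1505, 1549 and 1459 CPM in controls, groups that overlapped. WEE1 was not called (-0.11 ± 0.0644, adjusted p = 0.215). Among 32 tested G1/S and replication genes 9 fell and 1 rose (median -0.04), with UHRF1 (-0.59) and MCM2 (-0.49) lower. Beside both lists, 15.4% of all genes were called lower and 15.1% higher.

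In the libraries labelled siDRAIC, 0 of 36 genes were called against siDRAIC-NC by edgeR. An unadjusted edgeR p below 0.05 was found for 4 of the 36 genes, and for 1713 of all 15986 genes tested. DESeq2 and limma-voom also called 0. Over all 15986 genes of this experiment 0.713% were called in either direction. Estimates were below 0 for 34 of 36 genes and for 50.5% of all genes, with a median of -0.29 beside -0.00 over all genes. The summed level was 3768, 2839 and 3194 CPM in siDRAIC libraries and 4342, 4002 and 3768 CPM in siDRAIC-NC, so the groups met at their edge.

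Same-numbered libraries of this experiment deviated together, so they were also compared as pairs. With that replicate block 9 genes fell and 0 rose: ANLN, AURKB, CDC20, CENPF, HMMR, KIF11, KIF20B, NUF2 and PLK1. Over all genes, 3.58% were called lower with the block. In every pair 15 of 36 genes were lower in the siDRAIC library and 0 were higher, against 17.8% of all tested genes lower in every pair, and a further 18 genes were lower in 2 pairs. Without overlap 4 genes were lower (AURKA, CCNB1, CDC20, PLK1) and 0 higher, against 5.86% of all tested genes lower in this way.

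CDC20 (ENSG00000117399, chr1:43358955-43363203) and PLK1 (ENSG00000166851, chr16:23677656-23690367) had the smallest p. CDC20 had 281.5, 278.1 and 269.7 CPM in siDRAIC libraries and 301.1, 500.0 and 472.7 CPM in siDRAIC-NC. Its log2 fold change was -0.65 ± 0.206 SE (adjusted p = 0.215), and -0.61 ± 0.144 with the block (adjusted p = 0.000810). PLK1 had 181.7, 187.0 and 173.6 CPM against 192.1, 324.6 and 311.2 CPM in siDRAIC-NC (-0.65 ± 0.212, adjusted p = 0.245, and -0.60 ± 0.145 with the block, adjusted p = 0.00117). In both genes the siDRAIC libraries were close together, control replicate 1 lay just above them, and control replicates 2 and 3 lay far above. Without control replicate 1, 6 genes were called lower: CDC20 (-0.88), PLK1 (-0.88), UBE2C (-0.71), AURKB (-0.68), CDCA3 (-0.60) and CDCA8 (-0.58). In that fit 3.23% of all genes were called lower. Across the set, estimates in it were below 0 for 27 of 36 genes, against 34 in the main fit. Their median was -0.19, against -0.29 in the main fit, and they ranged from -0.88 to 2.09.

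Of the passenger complex genes, AURKB and CDCA8 also had control replicates 2 and 3 far above the siDRAIC libraries. AURKB had 112.4, 116.5 and 116.4 CPM in siDRAIC libraries against 114.9, 182.8 and 170.6 CPM in siDRAIC-NC (-0.47 ± 0.2005, adjusted p = 0.407, with the block -0.44 and adjusted p = 0.0372). CDCA8 had 93.7, 95.9 and 91.2 CPM against 92.3, 137.2 and 130.3 CPM (-0.39 ± 0.193, adjusted p = 0.503). Control replicate 1 lay among the siDRAIC libraries in both. UBE2C had 86.3, 87.0 and 98.7 CPM against 81.7, 143.6 and 139.2 CPM in siDRAIC-NC (-0.46 ± 0.224), and CDCA3 59.0, 58.2 and 60.4 CPM against 56.6, 91.7 and 79.6 CPM (-0.40 ± 0.206). BIRC5, which fell with them after sihnRNPA2B1, had 202.8, 212.2 and 192.3 CPM in siDRAIC libraries and 196.7, 257.8 and 199.99 CPM in siDRAIC-NC (-0.14 ± 0.172), with control replicates 1 and 3 among the siDRAIC libraries.

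Further genes of several roles had estimates below 0. CCNB1 had 203.0, 199.5 and 203.0 CPM in siDRAIC libraries and 226.9, 242.5 and 251.0 CPM in siDRAIC-NC, separate groups (-0.28 ± 0.150, adjusted p = 0.541). AURKA had 98.2, 100.02 and 113.5 CPM against 114.0, 127.8 and 135.9 CPM in siDRAIC-NC, groups that almost touched (-0.31 ± 0.164, adjusted p = 0.535). NUF2, part of the NDC80 complex that grips microtubules, had 35.4, 17.1 and 22.4 CPM against 53.9, 33.1 and 26.6 CPM (-0.62 ± 0.281, with the block -0.63 and adjusted p = 0.00565), and was lower in siDRAIC in all 3 pairs. ANLN had 178.8, 86.3 and 144.2 CPM against 263.7, 166.4 and 135.5 CPM (-0.49 ± 0.263, with the block -0.50 and adjusted p = 0.0122), and was higher in siDRAIC in 1 pair. Only BUB1B (0.22 ± 0.236) and CCNB2 (0.12 ± 0.160) had estimates above 0.

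The remaining estimates, none called with or without the block, ran from -0.48 for TTK to -0.02 for HJURP, apart from the genes of wide spread described next. They were -0.37 for ECT2, -0.32 for MKI67, -0.27 for NDC80, -0.26 for KIF23, -0.22 for CCNA2, -0.21 for KIF2C, -0.19 for CDCA2, -0.18 for DLGAP5, -0.17 for both TPX2 and BUB1, -0.13 for CENPA, -0.10 for GTSE1, -0.07 for CDK1 and -0.03 for CDC25C. NUSAP1, at under 1 CPM, had -0.41 ± 0.494. KIF23, the kinesin of the midbody, ends 14598 bases before the annotated start of DRAIC on the same strand of chromosome 15. It had 73.7, 49.95 and 80.8 CPM in siDRAIC libraries and 93.0, 75.1 and 72.9 CPM in siDRAIC-NC, which overlapped.

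A few genes, chosen after their values were seen, differed more between replicate numbers than between groups. CENPF, a large kinetochore protein, had 234.2, 41.6 and 11.4 CPM in siDRAIC replicates 1, 2 and 3, and 281.6, 62.2 and 25.2 CPM in the same-numbered siDRAIC-NC libraries. CENPE had 27.1, 2.06 and 0.375 CPM in siDRAIC and 30.7, 3.03 and 1.26 CPM in siDRAIC-NC. KIF20B, a kinesin of late mitosis, had 42.0, 6.62 and 1.61 CPM in siDRAIC and 56.7, 10.2 and 3.69 CPM in siDRAIC-NC. Replicate 1 was far above the other libraries in both groups, and within each number the siDRAIC library was the lower. HMMR, a spindle-pole protein, ran from 9.58 to 41.2 CPM in siDRAIC and 12.9 to 60.2 CPM in siDRAIC-NC, and TOP2A from 85.3 to 223.6 CPM and from 94.9 to 261.4 CPM.

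These genes have standard errors of 0.508 to 1.93 on the log2 scale in the unpaired fit. With the block, CENPF (-0.67 ± 0.152, adjusted p = 0.000397), KIF20B (-0.71 ± 0.192, adjusted p = 0.00486) and HMMR (-0.67 ± 0.175, adjusted p = 0.00314) were called lower, as was KIF11 (-0.47 ± 0.159, adjusted p = 0.0401). CENPE (-0.62 ± 0.229, adjusted p = 0.0682) and TOP2A (-0.33 ± 0.145, adjusted p = 0.143) were not.

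**Figure D3:**
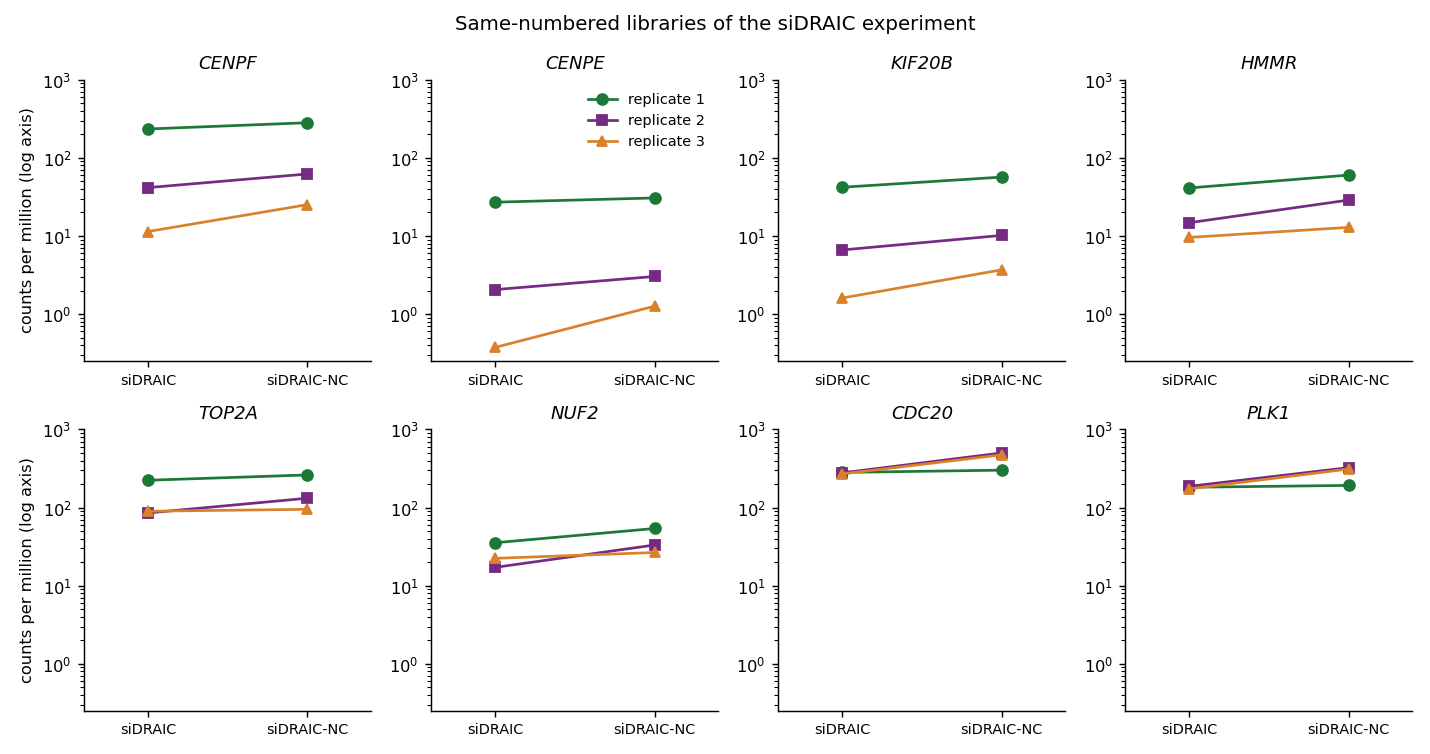
CPM (log axis) of 8 genes in siDRAIC and siDRAIC-NC libraries, with same-numbered libraries joined by a line. CENPF is at 234.2, 41.6 and 11.4 CPM in siDRAIC against 281.6, 62.2 and 25.2 CPM in siDRAIC-NC, whereas CDC20 has its siDRAIC libraries at 269.7 to 281.5 CPM.

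Among 35 genes (NUSAP1 left out), the highest library exceeded the lowest by more than 2 times for 11 in siDRAIC and 11 in siDRAIC-NC, and for 0 in sihnRNPA2B1 and 0 in sihnRNPA2B1-NC. Of all tested genes this held for 17.7% in siDRAIC, 21.9% in siDRAIC-NC, 7.93% in sihnRNPA2B1 and 9.67% in sihnRNPA2B1-NC. Across the 35 genes the log2 ratio of replicate 1 over replicate 3 followed transcript GC content, with Spearman rho -0.49 in siDRAIC and -0.91 in siDRAIC-NC, and transcript length, with rho 0.44 and 0.63. Over all tested protein-coding genes, rho with GC content was 0.04 in siDRAIC (12607 genes) and -0.59 in siDRAIC-NC (12602 genes), and rho with length was 0.04 and 0.30. These correlations describe single libraries that all points share. CENPE, KIF20B and HMMR are among the genes of lowest GC, and CDC20 and PLK1 have the highest.

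**Figure D4:**
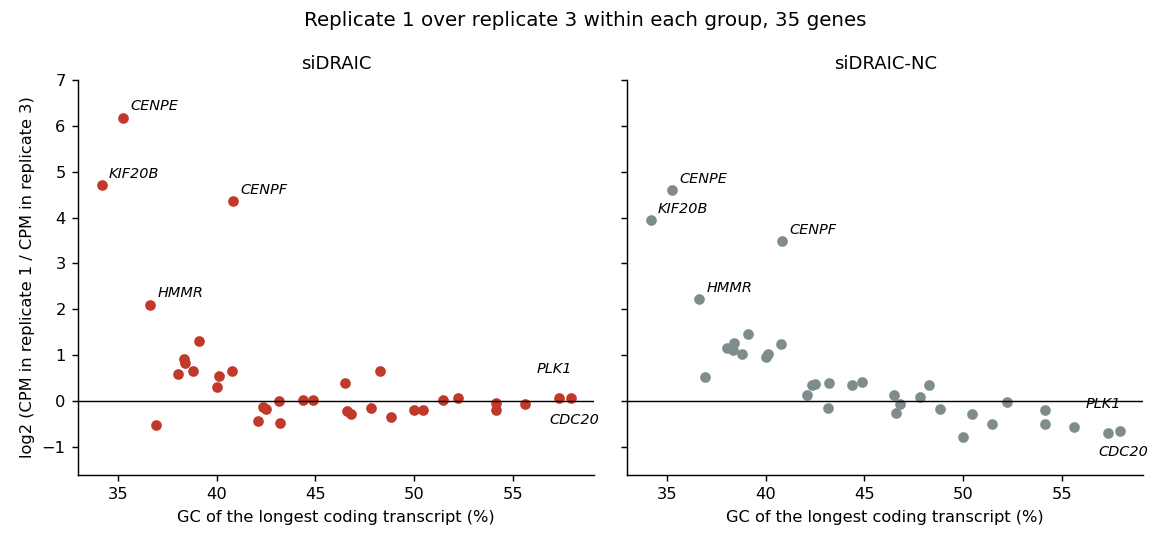
Log2 ratio of replicate 1 over replicate 3 (y axis) against GC percent of the longest coding transcript (x axis) for 35 genes, within siDRAIC (left) and siDRAIC-NC (right). In siDRAIC-NC the points descend from left to right (rho -0.91), with CENPE, KIF20B, CENPF and HMMR at the top in both panels.

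Other measures moved with the siDRAIC groups. Mitochondrial mRNAs took 8.48% ± 0.796 of counts in siDRAIC libraries and 7.07% ± 0.314 in siDRAIC-NC (SD, n = 3 each). The 4 fibroblast markers summed to 10.5 to 18.2 CPM in siDRAIC and 2.55 to 6.59 CPM in siDRAIC-NC, with LUM at 0 in both. Of these, COL1A1 was called higher (1.91, edgeR adjusted p = 0.0462) and PDGFRB was not called (1.74, adjusted p = 0.154). DCN had 2, 0 and 0 counts in each group. SERPINA1, the one hepatocyte marker above 1 CPM, averaged 184.6 CPM in siDRAIC and 293.5 CPM in siDRAIC-NC. Their part in the values of the mitosis genes was not tested.

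The lists around the set had 0 calls in this comparison and estimates mostly below 0. Estimates were negative for 36 of 40 further mitosis genes (median -0.29) and 29 of 33 G1/S and replication genes (median -0.20). The same held for 11 of 15 regulators (median -0.12) and 14 of 17 APC/C genes (median -0.13). It held for 8 of 11 tested genes that hold CDK1 back or act in the G2 checkpoint (median -0.10), and for 50.5% of all genes. FOXM1 had 153.8, 146.1 and 148.5 CPM in siDRAIC libraries and 165.5, 220.8 and 208.5 CPM in siDRAIC-NC, separate groups (-0.44 ± 0.171, adjusted p = 0.365, with the block -0.42 and adjusted p = 0.0424). Estimates for MYBL2 (-0.09 ± 0.2002), CDKN1A (-0.15 ± 0.158) and WEE1 (-0.10 ± 0.161) were within about 1 SE of 0. With the block 9 further mitosis genes fell, among them ASPM (-0.83), SMC2 (-0.81) and SMC4 (-0.80), and the CDK1 inhibitor PKMYT1 fell (-0.48) while CCNG2 rose (0.94). UBE2S (-0.62) and CLSPN (-0.51) also fell with the block.

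A direct test of whether the siDRAIC change differed from the sihnRNPA2B1 change called 0 of 36 genes by edgeR, and 0 by DESeq2 and limma-voom. By edgeR, 1 of the 36 had an unadjusted p below 0.05, as did 1561 of all 17091 genes. Over all 17091 genes 0.211% were called. BIRC5 had the smallest p, with a difference of 0.42 (adjusted p = 0.516): its log2 fold change was -0.14 in siDRAIC and -0.59 after sihnRNPA2B1. PLK1 (-0.46, adjusted p = 0.630), TTK (-0.57) and NUF2 (-0.51) followed with the siDRAIC change the lower. Without siDRAIC-NC replicate 1, PLK1 (-0.70, adjusted p = 0.0158) and CDC20 (adjusted p = 0.0182) were called, as were 1.16% of all genes in that direction. An uncalled difference does not show that the 2 changes were alike.

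The 2 control groups were compared with each other to show how far these genes differ between experiments. In sihnRNPA2B1-NC, 18 of 36 genes were lower than in siDRAIC-NC and 0 were higher by edgeR, against 26.6% of all genes called lower, and the median log2 fold change was -0.41 beside -0.02 over all genes. These groups differ in experiment, in control label and in any batch, which cannot be told apart. Marker genes differed between them too. SERPINA1 had a log2 fold change of -2.47. The hepatocyte markers, nearly all SERPINA1, summed to 52.5 to 56.7 CPM in sihnRNPA2B1-NC and 205.7 to 356.1 CPM in siDRAIC-NC. ALB, of the same list, went the other way and was called higher (3.40, edgeR adjusted p = 0.0192). It averaged 0.313 CPM in sihnRNPA2B1-NC and 0.0250 CPM in siDRAIC-NC. Of 9 kidney and clear cell carcinoma markers, KRT8 (-1.06), PAX2 (-0.97), VIM (-0.93) and KRT18 (-0.68) were called lower and LHX1 higher (0.74). HNRNPA2B1 was called lower too, at a mean of 419.6 CPM in sihnRNPA2B1-NC and 779.3 CPM in siDRAIC-NC (-0.90 ± 0.121, edgeR adjusted p = 1.93e-05). Mitochondrial mRNAs took 5.17% of counts in sihnRNPA2B1-NC and 7.07% in siDRAIC-NC, and the part of these differences in the result was not tested. The 3 lowest estimates were those of the mitotic entry genes CDCA3, PLK1 and CCNB1. CDCA3 had 21.9, 24.9 and 20.5 CPM in sihnRNPA2B1-NC and 56.6, 91.7 and 79.6 CPM in siDRAIC-NC (-1.79 ± 0.180, adjusted p = 1.20e-06). CCNB1 was at 88.7 to 89.7 CPM against 226.9 to 251.0 CPM (-1.45 ± 0.101, adjusted p = 3.04e-08), PLK1 at 87.3 to 105.3 CPM against 192.1 to 324.6 CPM (-1.56 ± 0.182) and CCNA2 at 58.1 to 63.5 CPM against 122.3 to 134.1 CPM (-1.05 ± 0.126). In these genes the 2 control groups lay far apart.

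Further calls between the controls were CDC20 (-1.36), UBE2C (-0.91), MKI67 (-0.78), GTSE1 (-0.77), AURKA (-0.76), CCNB2 (-0.75), HJURP (-0.73), BIRC5 (-0.63), AURKB (-0.60) and CENPA (-0.55). CDCA8 (-0.48), NUSAP1 (-1.44), CDCA2 (-0.42) and BUB1B (-0.51) were called too. CDCA8 lost its call without siDRAIC-NC replicate 2 or 3 or sihnRNPA2B1-NC replicate 1 or 3, and NUSAP1 without siDRAIC-NC replicate 1 or 2 or sihnRNPA2B1-NC replicate 1 or 3. CDCA2 lost it without siDRAIC-NC replicate 1 or sihnRNPA2B1-NC replicate 2 or 3, and BUB1B without siDRAIC-NC replicate 1 or 3 or any sihnRNPA2B1-NC library. Not every gene went that way: CENPE (1.33 ± 1.35), HMMR (0.65 ± 0.573), KIF20B (0.62 ± 1.12), ECT2 (0.56 ± 0.257), TOP2A (0.53 ± 0.393), NDC80 (0.49 ± 0.234) and CENPF (0.30 ± 1.04) had estimates above 0 that edgeR did not call. Over all genes edgeR called 25% higher. DESeq2, limma-voom and a fit of the controls with a replicate block each called ECT2 higher, against 25.2%, 26.3% and 24.4% of all genes. Without siDRAIC-NC replicate 1, ECT2 and NDC80 were called higher, against 27.4% of all genes. With no low-count filter 6 of the genes just listed were called higher (all but CENPF), against 13% of all genes tested that way. CDK1 (0.08) and KIF2C (-0.07) had estimates near 0. The G1/S and replication genes were called lower in 33 of 33 cases, with a median of -1.94, and 22 of 40 further mitosis genes were lower (median -0.49). FOXM1 (-0.99 ± 0.133), MYBL2 (-1.61 ± 0.170) and WEE1 (-0.50 ± 0.101) were lower in sihnRNPA2B1-NC, and CDKN1A was higher (0.87 ± 0.109).

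**Figure D5:**
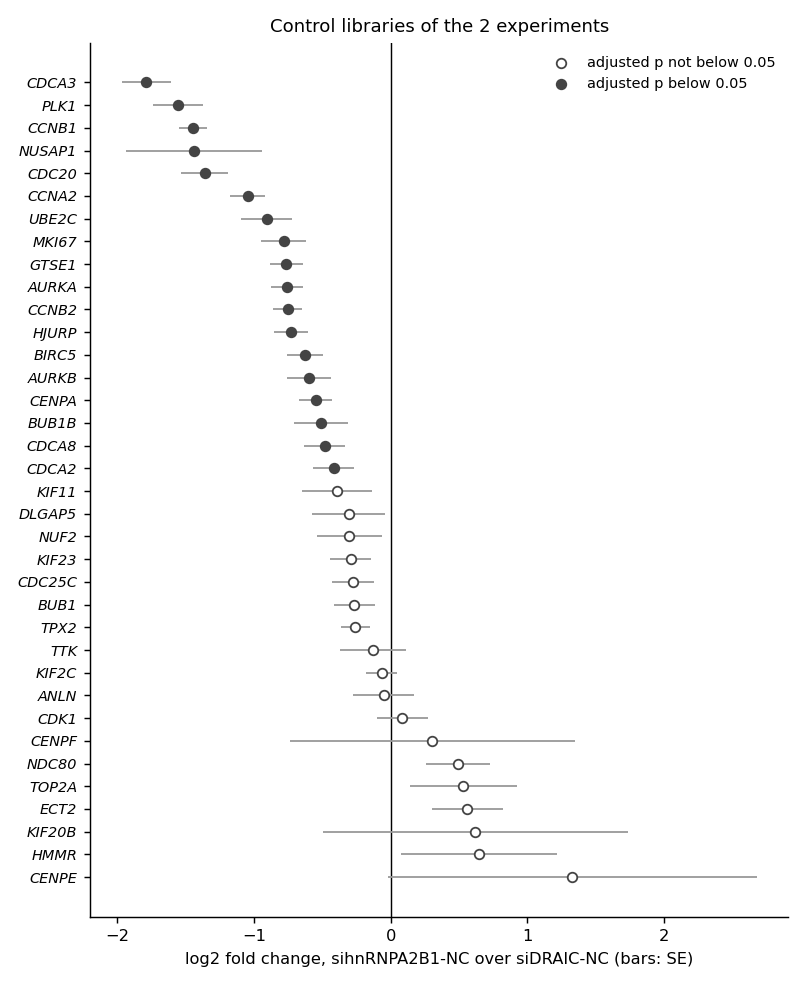
Log2 fold change of sihnRNPA2B1-NC over siDRAIC-NC with its SE (x axis) for the 36 genes, from the lowest estimate at the top. The 18 filled points, from CDCA3 at -1.79 to CDCA2 at -0.42, are called lower, and no gene is called higher.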

How the data were processed

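Raw counts per gene were deposited by the authors, 1 table per experiment. Per the submitters' processing notes, reads were handled on hg38 with fastp 0.23.2, with STAR 2.7.10a and with StringTie. Which counting program, annotation and strand setting were used is not stated in the sources at hand. Genes overlapping on opposite strands can therefore share reads, among them CCNA2 with EXOSC9, PLK1 with ERN2 and ANLN with KIAA0895. BUB1B with BUB1B-PAK6 and CENPA with SLC35F6 overlap on the same strand, where a strand setting cannot separate reads. Per the labels' protocols, RNAiso Plus and a TruSeq kit were used.

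The main test was edgeR 4.0.16 under R 4.3.3, run within each experiment on genes past filterByExpr (minimum count 10) with TMM factors. It was the robust quasi-likelihood test, two-sided, with Benjamini-Hochberg adjustment over all tested genes and calls at 0.05. The difference of changes and the control comparison used all 12 libraries. SE is the size of the log2 fold change divided by the root of F. Alternatives were DESeq2 1.42.0, limma-voom (limma 3.58.1), other filters and factors, and leaving out libraries. A floor of 3 counts in 1 library equals 0.0702 to 0.0974 CPM, and intervals cover counting error only.

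Same-numbered siDRAIC and siDRAIC-NC libraries had correlated deviations from their group means (0.49, 0.23 and 0.28, against -0.41 to 0.10 for other pairs), so the numbers were taken to pair them. In the sihnRNPA2B1 experiment they were not (-0.01, -0.02 and -0.05). Genes named in full were up to 10 with the smallest p per siRNA comparison, up to 4 in the others, and every called gene. Values per library are also given for some genes outside that rule. They are CCNB1 and CCNB2 after sihnRNPA2B1, and BIRC5, KIF23, CENPF, CENPE and KIF20B in siDRAIC. Members and lists were chosen with earlier results of these data known. Gene positions and lengths are GENCODE 29 on GRCh38.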

Additional observations from a re-analysis of the deposited data

How the results depend on the processing

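After sihnRNPA2B1, the 17 calls became 1 (BIRC5) when the spread was estimated over all 12 libraries, 6 of which come from the other experiment; leaving out 1 library at a time gave 12 to 17. With a replicate block, which those numbers do not pair, 16 genes were called and HJURP was lost (adjusted p = 0.0515), and DESeq2 called 16 without CDCA3. Of all genes, 0.568% were called lower with all 12 libraries and 10.6% to 17.4% without 1 library. With the block it was 13.9%, and by DESeq2 15.3%. In siDRAIC against siDRAIC-NC, 0 calls became 2 (CDC20 and PLK1) with no low-count filter, with all 12 libraries, and with no libraries numbered 1 in either group. With the replicate block 9 were called. In the order named, these fits called 0.547%, 1.45%, 0.575% and 3.58% of all genes lower. Leaving out 1 library gave 0 to 6, the highest without siDRAIC-NC replicate 1, where 3.23% of all genes were called lower. Dropping both libraries numbered 1, or both numbered 3 (0 calls), was chosen after seeing the data. For the difference of the changes, leaving out 1 library gave 0 to 2 calls. Between the controls, 0 genes of the set were called higher in the reported fit, 6 with no low-count filter, 2 without siDRAIC-NC replicate 1 and 1 with a replicate block, by DESeq2 and by limma-voom. Over all genes, 13.0% were called higher with no low-count filter and 24.4% to 27.4% in the other fits named. The cause of these shifts was not tested.

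Over all genes, siDRAIC gave 114 calls in the reported fit, 389 by DESeq2, 73 by limma-voom, 520 with no filter, 61 with at least 1 CPM in 3 libraries, 1404 with the replicate block, 665 with all 12 libraries, 276 and 0 without the libraries numbered 1 or 3, and 9 to 1035 without 1 library. After sihnRNPA2B1 it was 4781, but 283 with all 12 libraries. The difference gave 36 calls, 196 by DESeq2, 263 with no filter, 258 with the replicate block and 9 to 349 without 1 library. No named gene's called estimate changed sign; over genes and alternatives, estimates after sihnRNPA2B1 kept their side of the threshold 186 times and lost the call 35 times, those called between controls 211 and 22 times, and those for siDRAIC kept it 133 times and gained a call 17 times. Low counts limit DRAIC and NUSAP1, and the part of the overlap with AC087721.2 in the low NUSAP1 counts was not tested.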
